A study of Mus musculus with 24 samples.

Results

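The 7 neuronal adhesion genes were followed through 12 groups of sorted cortical neurons: Ncam1 and Ncam2, the IgLON genes Negr1, Lsamp and Opcml, and the Mdga genes Mdga1 and Mdga2. They were taken by name from a table of 32310 genes and loci, and all 7 were found. The groups are callosal, subcerebral and corticothalamic projection neurons isolated by FACS from the cortex of mice of the CD1 strain, each at embryonic day 15 (E15), E16, E18 and postnatal day 1 (P1). No genetic change or treatment is named in the labels, and the labels do not say which markers the sort used. The labels name 24 libraries, 2 in each group, but the table holds 1 pooled value per group, so no value has an SD or n of its own and the depth behind it is unknown. Levels are in FPKM (fragments assigned to a transcript, divided by its length and by the number of fragments mapped in the library), a unit inferred from the values and the tools. In bulk samples, fewer cells of a type and less RNA per cell cannot be told apart.

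These genes encode cell surface proteins of the immunoglobulin superfamily. Ncam1 and Ncam2 proteins bind a like molecule on the opposing membrane and promote axon growth and bundling, and polysialic acid chains attached to NCAM1 weaken that adhesion. The IgLON proteins are small molecules held on the outer membrane by a GPI lipid anchor, bind each other in pairs, and act in neurite outgrowth and synapse formation. MDGA proteins are also GPI-anchored and bind neuroligins, which keeps neuroligins from pairing with neurexins across the synapse. Callosal neurons join the hemispheres, subcerebral neurons reach the spinal cord and brainstem, and corticothalamic neurons reach the thalamus.

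By summed level, the markers of each label were highest in the sorted group of that label. The summed level of 6 callosal markers was 592 to 786 FPKM in callosal neurons, 28.3 to 76.5 in subcerebral and 49.7 to 96.3 in corticothalamic neurons. The 5 subcerebral markers summed to 454 to 620 FPKM in subcerebral neurons, 42.2 to 120 in callosal and 181 to 281 in corticothalamic neurons. Of these 5, Crym was instead lower in subcerebral than in corticothalamic neurons at E15 (8.66 against 16.4 FPKM) and E16 (42.6 against 59.6). The 6 corticothalamic markers summed to 587 to 737 FPKM in corticothalamic and 106 to 128 in callosal neurons, and to 372, 144, 82.0 and 64.8 in subcerebral neurons from E15 to P1. By this sum the E15 subcerebral group carried more corticothalamic marker RNA than the later subcerebral groups, but not by every listed marker. In these neurons Tbr1 went from 223 FPKM at E15 to 15.7 at P1 and Tle4 from 65.3 to 11.3. Ntsr1 was instead lowest at E15, at 21.9, 45.0, 29.3 and 25.7 FPKM from E15 to P1. Foxp2 went from 9.86 FPKM at E15 to 8.64 at P1. The 7 interneuron markers summed to 56.0 FPKM in E15 callosal neurons and to 1.97 to 17.0 in the other groups, and the 8 microglia markers to 20.1 to 38.8 in callosal neurons from E16 on and to 4.12 to 8.84 in the other groups. No listed marker of these cell types was at 0 at all stages in any subtype.

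The stretches upstream of Mdga1, Ncam2 and Negr1 are shown because these genes had the widest ranges among the 7, as the ratio of highest to lowest level. Each is the 250 bases before the annotated start, from RefSeq on GRCm38.p6, 5′ to 3′ on the gene's strand, with the GC box CCGCCC or its reverse complement GGGCGG in capitals. Mdga1 lies on the minus strand at chr17:29887883-29888132, Ncam2 on the plus strand at chr16:81200447-81200696 and Negr1 on the plus strand at chr3:156561544-156561793.
Mdga1: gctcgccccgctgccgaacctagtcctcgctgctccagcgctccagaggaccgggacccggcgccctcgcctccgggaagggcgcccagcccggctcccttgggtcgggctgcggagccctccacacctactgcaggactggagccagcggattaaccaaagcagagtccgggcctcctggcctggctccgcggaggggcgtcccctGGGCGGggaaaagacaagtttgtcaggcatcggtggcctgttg
Ncam2: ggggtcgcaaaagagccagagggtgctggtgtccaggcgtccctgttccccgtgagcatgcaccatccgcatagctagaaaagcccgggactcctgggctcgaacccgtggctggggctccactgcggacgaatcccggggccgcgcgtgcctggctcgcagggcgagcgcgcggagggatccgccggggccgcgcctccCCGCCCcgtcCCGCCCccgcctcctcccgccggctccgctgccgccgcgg
Negr1: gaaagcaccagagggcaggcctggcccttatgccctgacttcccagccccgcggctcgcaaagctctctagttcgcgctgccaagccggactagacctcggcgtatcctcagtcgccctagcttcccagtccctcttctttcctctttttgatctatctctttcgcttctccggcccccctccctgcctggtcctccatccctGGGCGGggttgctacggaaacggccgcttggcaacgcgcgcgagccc
The Ncam2 stretch was 75.2% G and C with 32 CpG pairs, the Mdga1 stretch 70.4% with 21, and the Negr1 stretch 63.6% with 19. Over 32851 RefSeq promoters the median was 52.4% with 6 CpG pairs. Promoters were matched for 6 of the 7 genes, with none for Ncam1 and a pair for Lsamp. In all, 6 motifs were searched on both strands. The GC box was present in these 3 stretches (2 copies for Ncam2, 1 each for Mdga1 and Negr1), in none of the Mdga2, Opcml and Lsamp stretches, and in 32.7% of all promoters. Outside the 7, the IgLON gene Iglon5 also had 1 copy, although its level only ranged from 35.2 to 47.4 FPKM over the groups. A stretch of the IgLON gene Ntm had 1 copy too. CAGATG, present in 14.4% of all promoters, was found in 1 of the Lsamp stretches. CAGCTG (13% of all promoters), TAATTA (4.84%), TATAAA (12.4%) and AACAAT (9.42%) were found in none of the stretches of the 6 matched genes. A match is a description of the letters only.

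**Figure D1:**
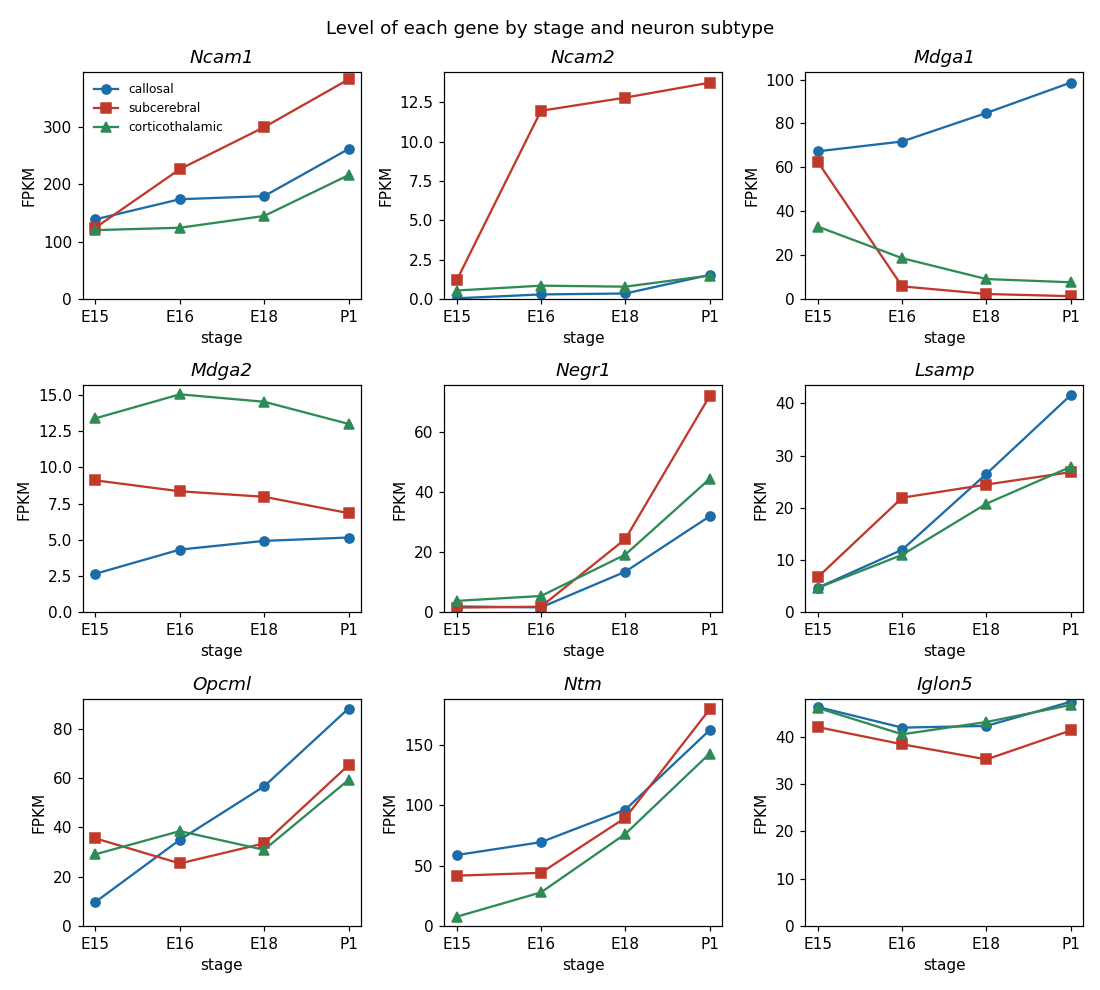
Level of each gene in FPKM (vertical axis, its own scale in each panel, starting at 0) at the 4 stages (horizontal axis, evenly spaced) in callosal, subcerebral and corticothalamic neurons. Each point is 1 pooled value with no error bar. Mdga1 ran from 67.3 to 98.6 in callosal neurons and from 62.5 to 1.24 in subcerebral neurons, and Ncam2 passed 11 only in subcerebral neurons from E16.

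Ncam2 and Mdga1 marked opposite sides of the callosal and subcerebral comparison. Ncam2 was higher in subcerebral neurons at each stage. Mdga1 was nearly equal in both at E15 and higher in callosal neurons from E16 on. Ncam1, the broad neuronal adhesion molecule, was abundant everywhere. Ncam1 measured 139, 174, 179 and 261 FPKM in callosal neurons at E15, E16, E18 and P1. In subcerebral neurons Ncam1 measured 124, 226, 299 and 383 FPKM. In corticothalamic neurons it measured 120, 124, 145 and 216 FPKM. The subtypes lay close together at E15, and from E16 on subcerebral neurons were highest, callosal neurons next and corticothalamic neurons lowest at each stage.

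Ncam2, a close relative of Ncam1 best known from olfactory axons, was far lower. In subcerebral neurons Ncam2 measured 1.17 FPKM at E15 and then 11.95, 12.8 and 13.7. In callosal neurons it measured 0.0367, 0.284, 0.343 and 1.53 FPKM. Its corticothalamic values were 0.532, 0.841, 0.777 and 1.48 FPKM. The subcerebral values from E16 on thus stood apart from all other values, which stayed below 2. At E16 and E18 the subcerebral FPKM was 14.2 and 16.5 times the corticothalamic one, and at P1 9.27 times. Ncam2 made up 0.936% of the summed FPKM of both Ncam genes in E15 subcerebral neurons and 5.02%, 4.1% and 3.47% at the later stages, against at most 0.683% in the other subtypes. Markers of Cajal-Retzius cells, a reelin-secreting cell type at the cortical surface, summed to 4.22, 13.2, 25.8 and 44.7 FPKM in subcerebral neurons from E15 to P1 and to 3.46 to 15.3 in the other groups (4 of 4 listed genes in the table, 1 of them reaching 1 FPKM in subcerebral neurons, none at 0 at all stages). Their part in the Ncam2 values was not tested.

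Mdga1, which in the embryonic cortex is known as a gene of upper-layer neurons, was at 67.3 FPKM or more in callosal neurons at every stage and at 18.6 or less in the other subtypes after E15. Mdga1 measured 67.3, 71.8, 84.8 and 98.6 FPKM in callosal neurons from E15 to P1. In subcerebral neurons it measured 62.5, 5.70, 2.23 and 1.24 FPKM. In corticothalamic neurons it measured 33.0, 18.6, 9.04 and 7.58 FPKM. Callosal and subcerebral values were thus nearly equal at E15 and did not overlap afterwards. The ratio of callosal to subcerebral FPKM was 1.08 at E15, 12.6 at E16, 38 at E18 and 79.9 at P1. The ratio of callosal to corticothalamic FPKM was 2.04, 3.87, 9.38 and 13 at the same stages. The summed corticothalamic markers in subcerebral neurons, given above, were also highest at E15, as was the subcerebral value of Mdga1. At E15 Mdga1 was at 62.5 FPKM in subcerebral and 33.0 in corticothalamic neurons. Markers of progenitors and proliferating cells (9 of 9 listed genes in the table, none at 0 at all stages) went from 38.9 FPKM at E15 to 26.3 to 32.1 later in subcerebral neurons, from 57.02 to 20.9 in callosal and from 59.1 to 8.88 in corticothalamic neurons. Of that list, Hes1 went the other way in subcerebral neurons, from 0.366 FPKM at E15 to 13.5 at P1, while Vim went from 23.3 to 11.4 and Nes from 10.4 to 1.43. The part of these cell types in the Mdga1 values was not tested.

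Mdga2 had another order of subtypes than its relative. Mdga2 measured 2.66, 4.33, 4.93 and 5.16 FPKM in callosal neurons from E15 to P1. In subcerebral neurons it measured 9.10, 8.35, 7.97 and 6.84 FPKM. In corticothalamic neurons it measured 13.4, 15.03, 14.5 and 12.99 FPKM. At every stage corticothalamic neurons were highest and callosal neurons lowest, and the gap between callosal and subcerebral neurons narrowed from 3.42-fold at E15 to 1.33-fold at P1. Mdga2 made up 3.81% to 5.69% of the summed FPKM of both Mdga genes in callosal neurons. In subcerebral neurons that share was 12.7%, 59.4%, 78.1% and 84.7% from E15 to P1, and in corticothalamic neurons 28.9%, 44.7%, 61.6% and 63.2%. The sum of the pair was 104 FPKM in callosal neurons at P1, 20.6 in corticothalamic and 8.08 in subcerebral neurons.

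Negr1, an IgLON gene with a known role in neurite growth, was low until E16 and high at P1 in each subtype. Negr1 measured 1.98, 1.67, 13.6 and 32.0 FPKM in callosal neurons from E15 to P1. In subcerebral neurons it measured 1.60, 1.89, 24.4 and 72.1 FPKM. In corticothalamic neurons it measured 3.84, 5.46, 19.3 and 44.5 FPKM. Corticothalamic neurons were highest at E15 and E16 and subcerebral neurons at E18 and P1.

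Lsamp, named for the limbic system where its protein was described, was at similar levels in the 3 subtypes at E15. Lsamp measured 4.72, 11.99, 26.5 and 41.6 FPKM in callosal neurons. Subcerebral neurons gave 6.74, 22.0, 24.5 and 26.9 FPKM. Corticothalamic neurons gave 4.69, 11.02, 20.8 and 27.9 FPKM. The subcerebral value came close to its P1 level by E16, while callosal neurons were highest at E18 and P1.

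Opcml, an IgLON gene whose protein was described as an opioid-binding molecule, changed its order of subtypes with stage. Opcml measured 9.71, 34.9, 56.6 and 88.2 FPKM in callosal neurons. Subcerebral neurons gave 35.5, 25.3, 33.5 and 65.2 FPKM. Corticothalamic neurons gave 29.1, 38.5, 30.9 and 59.2 FPKM. The callosal value was lowest of the 3 at E15 and highest at E18 and P1. The E15 callosal group is also the one in which interneuron markers (7 of 7 listed genes in the table, all reaching 1 FPKM in callosal neurons) summed to 56.0 FPKM, and their part was not tested.

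The 2 other IgLON genes set the scale of the family. Ntm measured 58.7, 69.4, 96.3 and 162 FPKM in callosal neurons, 41.6, 44.0, 89.5 and 179 in subcerebral neurons and 7.59, 27.8, 76.2 and 143 in corticothalamic neurons. Iglon5 stayed between 35.2 and 47.4 FPKM in all 12 groups. The 5 IgLON genes summed to 121, 160, 235 and 371 FPKM in callosal neurons, 127, 132, 207 and 385 in subcerebral neurons and 91.2, 123, 190 and 321 in corticothalamic neurons. Iglon5 accounted for 38.1% of that sum in E15 callosal neurons and 12.8% at P1, and Ntm was the most abundant of the 5 at P1 in each subtype with 43.7% to 46.6%. Negr1 went from 1.26% to 18.7% of the sum in subcerebral neurons, and Opcml from 8% to 23.7% in callosal neurons and from 31.9% to 18.4% in corticothalamic neurons. In GENCODE M21 transcripts, Opcml and Ntm share a stretch of 124 identical bases, and 99 of 7206 windows of 36 bases in Opcml also occur in Ntm, so part of their reads could have been assigned to either. Ncam1 and Ncam2 share a stretch of 38 bases, and Mdga1 and Mdga2 one of 47. Ncam1 exons overlap the antisense gene Gm11149 and Mdga2 exons the pseudogene Gm19001, and whether counting used strand is not given in the sources used here.

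**Figure D2:**
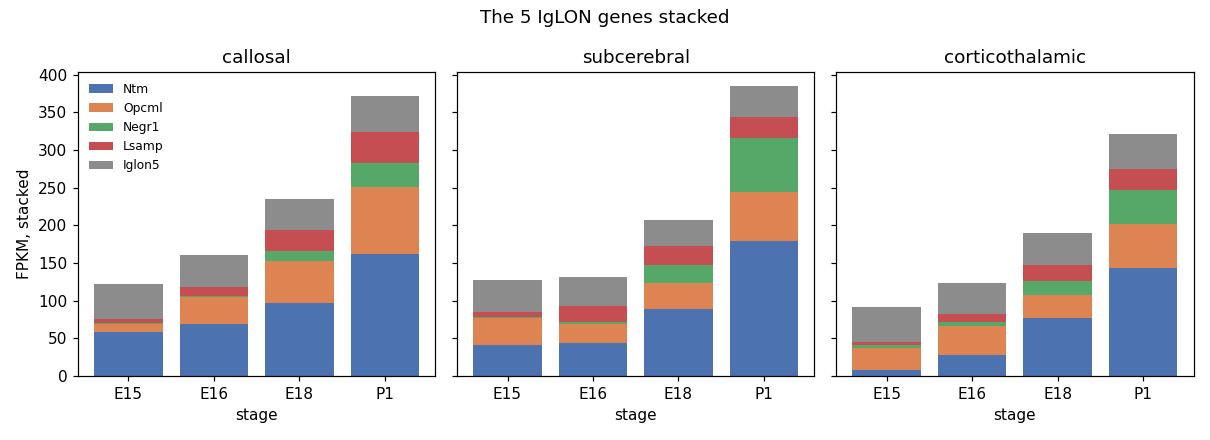
Stacked FPKM (vertical axis, starting at 0) of Ntm, Opcml, Negr1, Lsamp and Iglon5 at each stage (horizontal axis) in the 3 subtypes, with 1 pooled value per block and no error bars. The stack reached 371 FPKM in callosal, 385 in subcerebral and 321 in corticothalamic neurons at P1, while the Iglon5 block stayed between 35.2 and 47.4.

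The subtype differences were tested with limma on log2(FPKM + 1), with terms for stage and subtype fitted over the 12 values of each of 13946 genes that reached 1 FPKM in at least 2 groups. All 7 genes passed that filter. With 1 value per group, the adjusted p measures how evenly subtype differences held over the stages, not the spread between libraries. Its estimate of spread came from all 3 subtypes, so uneven values in the subtype outside a pair also raise the p of that pair. A fold on this scale understates changes of low genes. Between callosal and subcerebral neurons, 3 of the 7 genes passed an adjusted p of 0.05, 1 higher and 2 lower in callosal neurons, beside 29.3% of all tested genes (14.1% higher and 15.2% lower). Mdga1 was higher in callosal neurons by 3.44 ± 0.72 log2 units (SE, adjusted p = 0.0103). Ncam2 was lower in callosal neurons, with a difference of -2.58 ± 0.39 (adjusted p = 0.00305), and so was Mdga2, with -0.80 ± 0.15 (adjusted p = 0.00685). The others did not pass: the differences were -0.38 for Ncam1, -0.47 for Negr1, -0.13 for Lsamp and -0.04 for Opcml, with adjusted p from 0.0919 to 0.954. The Mdga1 call was lost without E16 (adjusted p = 0.0735), without E18 (0.0918) or without P1 (0.0616), and the Mdga2 call without E16 (0.0617). Without E15 the Ncam1 difference was -0.55 (adjusted p = 0.00235) and without the E15 subcerebral value -0.57 (0.00154), and the Opcml difference without E15 was 0.54 (0.0438).

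Between callosal and corticothalamic neurons, both Mdga genes passed, again in opposite directions. These were 2 of the 7 genes, beside 31.3% of all tested genes (15.3% higher and 16% lower). Mdga2 was lower in callosal neurons, with a difference of -1.53 ± 0.15 (adjusted p = 0.000248), and its adjusted p stayed at or below 0.00712 when any 1 stage or value was left out. Mdga1 was higher in callosal neurons by 2.38 ± 0.72 (adjusted p = 0.0365). The others did not pass: the differences were 0.32 for Ncam1, -0.37 for Ncam2, -0.73 for Negr1, 0.25 for Lsamp and -0.05 for Opcml, with adjusted p from 0.0865 to 0.936. The Mdga1 call was lost in 11 of 16 fits that left out a stage or value, namely without E16, E18 or P1 as a whole, any of the 3 E16 values, or the callosal or corticothalamic value at E18 or P1, and without the E15 corticothalamic value (adjusted p up to 0.158, without E18). With no filter on low values its adjusted p was 0.0594. When only the 8 values of these subtypes were fitted, Ncam1 and Negr1 also passed (adjusted p = 0.0179 and 0.0221), and Ncam1 passed without E15 (0.0147) or without the E15 subcerebral value (0.01) and Negr1 without the P1 subcerebral value (0.0492).

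Between subcerebral and corticothalamic neurons, both Ncam genes were higher in subcerebral neurons and Mdga2 was lower. These were 3 of the 7 genes, beside 27.5% of all tested genes (14.7% higher and 12.8% lower). Ncam2 differed by 2.21 ± 0.39 (adjusted p = 0.00845), Ncam1 by 0.70 ± 0.15 (adjusted p = 0.0149) and Mdga2 by -0.73 ± 0.15 (adjusted p = 0.0135). Mdga1 did not pass, with a difference of -1.05 ± 0.72 (adjusted p = 0.286), nor did Negr1 (-0.26), Lsamp (0.39) and Opcml (-0.01), with adjusted p from 0.164 to 0.982. All 3 calls were lost without E16 or without E18, where the adjusted p was 0.0747 and 0.0885 for Ncam2, 0.108 and 0.121 for Ncam1 and 0.0995 and 0.109 for Mdga2. Ncam2 and Ncam1 were also lost without P1 (0.0563 and 0.0812), Mdga2 without the subcerebral value at E18 (0.0581) or P1 (0.0504), and Ncam1 without either value at E16 or E18 or the P1 subcerebral value (0.0528 to 0.06). Mdga1 passed without E15, at -1.71 (0.00822), and without the E15 subcerebral value, at -1.94 (0.0135), while its difference was -0.57 (0.632) without the P1 subcerebral value.

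**Figure D3:**
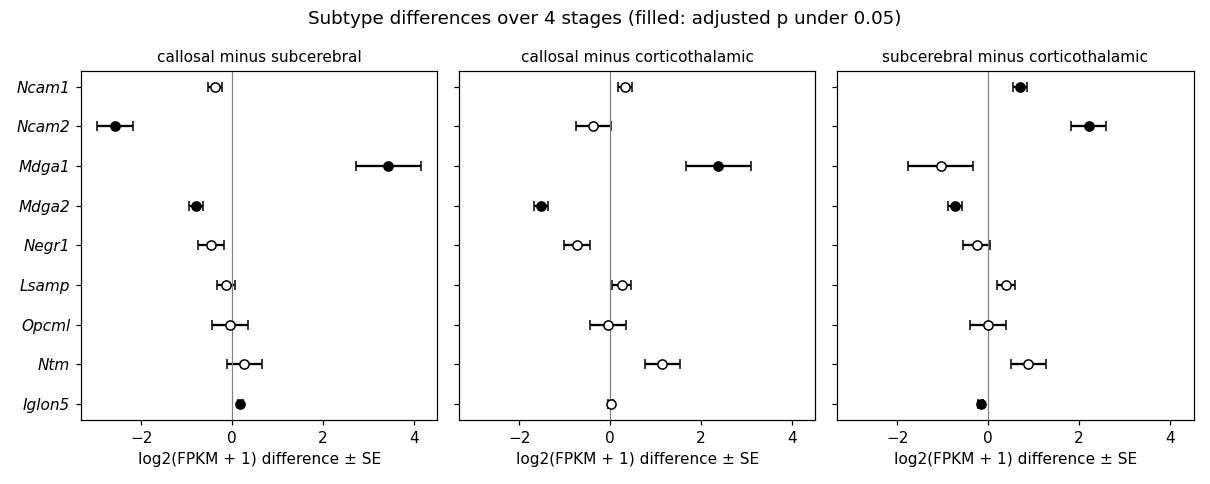
Difference between subtypes on the log2(FPKM + 1) scale (horizontal axis, the same in the 3 panels) for the 7 genes and the IgLON genes Ntm and Iglon5 (vertical axis), with bars of 1 SE from the fit over 4 stages. Filled points have an adjusted p under 0.05. Mdga1 lay at 3.44 and Ncam2 at -2.58 in the callosal and subcerebral comparison, on opposite sides of 0.

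From E15 to P1, 5 of the 7 genes rose and none passed in the lower direction, beside 67.4% of all tested genes passing in either direction, 33.8% in the higher and 33.6% in the lower one. Negr1 rose by 3.84 ± 0.33 log2 units (adjusted p = 2.96e-05), Lsamp by 2.36 ± 0.23 (5.05e-05) and Opcml by 1.64 ± 0.46 (0.012), so all 3 IgLON genes among the 7 rose. Ncam1 rose by 1.12 ± 0.17 (adjusted p = 0.000562) and Ncam2 by 1.58 ± 0.45 (adjusted p = 0.0139). Each of these 5 genes was higher at P1 than at E15 in 3 of 3 subtypes, and the FPKM ratio ran from 1.8 for Ncam1 in corticothalamic neurons to 45 for Negr1 in subcerebral neurons, leaving aside Ncam2 in callosal neurons, which began at 0.0367. Mdga1 differed by -2.09 ± 0.83 (adjusted p = 0.0518) and Mdga2 by 0.12 ± 0.18 (adjusted p = 0.581). The Opcml call was lost without the P1 callosal value (adjusted p = 0.0518) and the Ncam2 call without callosal neurons (0.0566), and the Opcml rise was 0.93 without callosal neurons, the Ncam2 rise 0.87 without the E15 subcerebral value. Mdga1 passed without callosal neurons (-3.41, 0.0101), without the E15 callosal value (-3.14, 0.00468) or the P1 callosal value (-2.80, 0.0262), and its difference was -0.72 without subcerebral neurons. For this comparison the adjusted p measures how evenly stage changes held over the subtypes, not the spread between libraries. Its estimate of spread came from all 4 stages, so the E16 and E18 values also enter it. A stage cannot be told apart from the collection or sequencing of its groups.

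The change was also fitted per subtype, as a slope in log2 units for each step from a stage to the next, a choice made after seeing the data. For a slope, the adjusted p reflects how closely single values followed straight lines over evenly numbered stages, not the spread between libraries. Callosal neurons had 5 of 7 slopes past the threshold, all upward, beside 32.8% of all tested genes (16.8% upward and 16.1% downward). They were Lsamp (0.98 ± 0.14 per step), Opcml (0.99 ± 0.16), Negr1 (1.29 ± 0.27), Ncam1 (0.28 ± 0.07) and Mdga2 (0.24 ± 0.06), with adjusted p from 0.00174 to 0.0204. Mdga2 thus rose in callosal neurons, where it was lowest, and its slopes in subcerebral (-0.12) and corticothalamic neurons (-0.02) did not pass (adjusted p = 0.126 and 0.847). The callosal Mdga2 slope was lost without E15 (0.10, adjusted p = 0.271), the E15 callosal value (0.10, 0.323) or E18 (0.23, 0.061). In callosal neurons the slopes of Ncam1 and Negr1 did not pass without P1 (adjusted p = 0.154 and 0.182) or its callosal value (0.381 and 0.166), that of Opcml did not without the E15 callosal value (0.66 per step, 0.0862), and that of Ncam1 did not without E15 (0.0718), E16 (0.0738) or the E15 callosal value (0.132). Mdga1 had a callosal slope of 0.19 ± 0.22 (adjusted p = 0.542). Ncam2 had one of 0.39 ± 0.22 (adjusted p = 0.205), which passed without the E15 subcerebral value (0.0111) and with a pseudocount of 0.1 (1.09 per step, 0.0234).

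Subcerebral neurons had 5 of 7 slopes past the threshold, 4 upward and 1 downward, beside 49.6% of all tested genes (25.5% upward and 24.2% downward). Mdga1 fell by 1.55 per step on the log2 scale, with an SE of 0.22 (adjusted p = 0.000918). Without E15 its slope was -0.79 (adjusted p = 0.0118), and without P1 -2.15, both past the threshold. Negr1 (1.76 ± 0.27), Ncam2 (0.84 ± 0.22), Lsamp (0.57 ± 0.14) and Ncam1 (0.52 ± 0.07) rose, with adjusted p from 0.000797 to 0.0141, and Opcml had a slope of 0.30 (adjusted p = 0.161). Without the E15 subcerebral value the slopes of Ncam2 and Lsamp were 0.09 and 0.14 and did not pass (adjusted p = 0.614 and 0.413), nor did they without E15 (0.633 and 0.276), nor that of Ncam2 without E18 (0.0554) or of Negr1 without P1 (0.0547). For Mdga1, Ncam2 and Lsamp the largest step of FPKM in these neurons was the one from E15 to E16. Opcml passed without E15 (0.66 per step, adjusted p = 0.0362).

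Corticothalamic neurons had 4 of 7 slopes past the threshold, 3 upward and 1 downward, beside 31.7% of all tested genes (17% upward and 14.7% downward). Mdga1 fell by 0.69 per step, with an SE of 0.22 (adjusted p = 0.0445), and Negr1 (1.13 ± 0.27), Lsamp (0.79 ± 0.14) and Ncam1 (0.27 ± 0.07) rose, with adjusted p from 0.00525 to 0.023. The Mdga1 call was lost in 12 of 16 fits that left out a stage or value, all but those without E15 or without the subcerebral value at E15, E16 or P1 (adjusted p up to 0.273), and with no filter (0.0742). The Ncam1 and Negr1 slopes did not pass without P1 (0.289 and 0.239) or its corticothalamic value (0.52 and 0.257), nor did Ncam1 without E16 (0.102) or its corticothalamic value (0.0506), or with quantile normalization (0.0583). Negr1 was also lost without E18 (0.0547) or the E15 corticothalamic value (0.0633), and Lsamp without the corticothalamic value at E15 (0.0894) or P1 (0.0682).

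**Figure D4:**
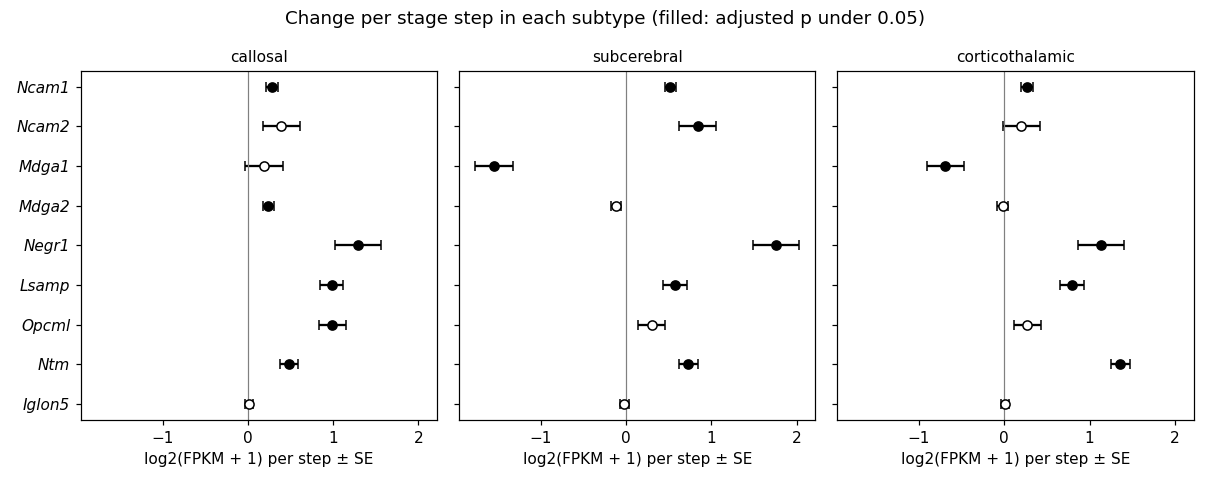
Change per step between neighbouring stages on the log2(FPKM + 1) scale (horizontal axis, the same in the 3 panels) in each subtype for the 7 genes, Ntm and Iglon5 (vertical axis), with bars of 1 SE. Filled points have an adjusted p under 0.05. Mdga1 lay at 0.19 in callosal, -1.55 in subcerebral and -0.69 in corticothalamic neurons.

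Slopes were then compared between subtypes. The Mdga1 slope was higher in callosal than in subcerebral neurons by 1.74 ± 0.32 per step (adjusted p = 0.0462), 1 of 7 genes beside 1.05% of all tested genes. That call held in only 2 of 16 fits leaving out a stage or value, those without the subcerebral value at E16 (1.87, adjusted p = 0.025) or P1 (2.34, 0.0279). The difference was 0.98 without the E15 subcerebral value, its lowest, the adjusted p reached 0.263 without E18, and the call was lost with no filter (0.0744) and with quantile normalization (0.0582). None of the 7 genes passed between callosal and corticothalamic neurons (0.896% of all tested genes) or between subcerebral and corticothalamic neurons (1.08%) in limma, while 3 and 2 had an unadjusted p under 0.05. Mdga1 passed between callosal and corticothalamic neurons without the E15 subcerebral value (0.88 per step, adjusted p = 0.0148). The Opcml slope, past the threshold in callosal neurons alone, was not shown to differ between callosal neurons and the others (adjusted p = 0.176 against subcerebral and 0.216 against corticothalamic neurons). Of the other IgLON genes, Ntm rose by 2.53 ± 0.45 from E15 to P1 (adjusted p = 0.00122), and its slope was lower in callosal than in corticothalamic neurons by -0.88 ± 0.16 per step (adjusted p = 0.0493). That call held in 3 of 16 fits, those without the subcerebral value at E15 (0.022), E16 (0.0438) or P1 (0.0467), and was lost with no filter (0.0811). The difference was -0.55 without E15. Iglon5 differed by 0.18 ± 0.05 between callosal and subcerebral neurons (adjusted p = 0.0273), a call lost in 8 of 16 fits with a stage or value left out (up to 0.192, without E18). It differed by -0.17 ± 0.05 between subcerebral and corticothalamic neurons (adjusted p = 0.0371), a call lost in 12 of 16 (up to 0.265, without E18), and by 0.01 between P1 and E15 (adjusted p = 0.89).

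Genes that act on or with NCAM were listed as a pathway, 12 in all with 11 tested. From E15 to P1, 2 of the 11 rose and 5 fell, with a median of -0.07 log2 units beside 0.00 over all tested genes. These 63.6% of the list stand beside the 67.4% of all tested genes. St8sia4, an enzyme that adds polysialic acid to NCAM, measured 9.59, 12.4, 11.1 and 2.85 FPKM in callosal neurons from E15 to P1, 5.83, 5.75, 5.63 and 1.28 in subcerebral neurons and 7.58, 7.91, 6.13 and 1.44 in corticothalamic neurons. St8sia4 fell by 1.62 log2 units, with an SE of 0.10 (adjusted p = 7.38e-06), and in each subtype its largest step down was from E18 to P1, the stage at which Ncam1 was highest. The FGF receptors, through which NCAM signals, also fell: Fgfr1 by 2.63, Fgfr2 by 2.64 and Fgfr3 by 1.53 log2 units (adjusted p = 0.00131, 0.00419 and 1.46e-05), the Fgfr2 call being lost without callosal neurons (0.0505). Gap43, a growth cone protein that acts downstream of NCAM, rose by 2.14 ± 0.20 (adjusted p = 4.29e-05). Between subtypes, 3 of the 11 were higher and 3 lower in callosal than in subcerebral neurons, 3 higher and 1 lower in callosal than in corticothalamic neurons, and 2 higher and 0 lower in subcerebral than in corticothalamic neurons. As shares these were 54.5%, 36.4% and 18.2%, beside 29.3%, 31.3% and 27.5% of all tested genes. St8sia4 was higher in callosal neurons than in subcerebral neurons by 0.81 ± 0.09 (adjusted p = 0.000682) and than in corticothalamic neurons by 0.58 ± 0.09 (adjusted p = 0.00189).

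The neuroligins and neurexins, the synaptic pair that MDGA proteins act on, gave 6 genes, all tested. From E15 to P1, 3 rose and 1 fell, with a median of 0.78 beside 0.00 over all tested genes, and these 66.7% of the list stand beside 67.4% of all tested genes. Nrxn2 rose by 1.26 ± 0.17 (adjusted p = 0.000279). Nlgn1, the one gene of the 6 to pass between subtypes and named after its values were seen, measured 34.7, 32.3, 28.9 and 36.6 FPKM in subcerebral neurons from E15 to P1, 22.3, 25.3, 20.7 and 29.8 in callosal neurons and 17.9, 22.3, 17.4 and 24.7 in corticothalamic neurons. Nlgn1 was thus highest in subcerebral and lowest in corticothalamic neurons at each stage. It was higher in subcerebral than in corticothalamic neurons by 0.67 ± 0.07 (adjusted p = 0.00147) and lower in callosal than in subcerebral neurons, with a difference of -0.43 ± 0.07 (adjusted p = 0.00389), the latter call being lost without E18 (0.0522). It was also higher in callosal than in corticothalamic neurons by 0.24 ± 0.07 (adjusted p = 0.0303), a call lost in 9 of 16 fits with a stage or value left out (up to 0.14, without E18). Nlgn2, found at inhibitory synapses, stayed between 84.9 and 110 FPKM in all groups.

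The enzymes that build and attach the GPI anchor numbered 27, all tested, and showed no common direction. From E15 to P1, 11 rose and 7 fell (median 0.12), 66.7% of the list beside 67.4% of all tested genes. Between subtypes 4, 6 and 7 of them passed in the callosal to subcerebral, callosal to corticothalamic and subcerebral to corticothalamic comparisons, or 14.8%, 22.2% and 25.9% beside 29.3%, 31.3% and 27.5%. Piga, part of the enzyme for the first step, fell by 1.08 log2 units (adjusted p = 0.000149) and Pgap1, which trims a lipid chain from the anchor, by 1.23 (6.01e-05), while Pigt, a subunit of the GPI transamidase, rose by 0.90 ± 0.08 (adjusted p = 3.09e-05). Of 6 enzymes that can release such proteins from the membrane, 5 were tested, and 2 rose and 1 fell from E15 to P1 (60% beside 67.4%). Mmp2, a secreted metalloprotease, was lower in callosal neurons than in corticothalamic neurons, with a difference of -1.14 ± 0.17 (adjusted p = 0.00177), and than in subcerebral neurons, with -0.98 ± 0.17 (0.00488). Its levels were low, at 0.582, 0.666, 1.19 and 1.33 FPKM in callosal neurons from E15 to P1. Over all groups the highest value was 5.95 FPKM and the median 1.83.

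Of 43 other adhesion genes of the immunoglobulin superfamily, 37 were tested. From E15 to P1, 19 rose and 6 fell, with a median of 0.56 beside 0.00 over all tested genes (67.6% of the list beside 67.4%). Between callosal and subcerebral neurons 8 were higher and 8 lower, between callosal and corticothalamic neurons 5 and 13, and between subcerebral and corticothalamic neurons 8 and 8. These were 43.2%, 48.6% and 43.2% of the list, beside 29.3%, 31.3% and 27.5% of all tested genes. Thy1, a small GPI-anchored surface protein of projection neurons, differed between callosal and subcerebral neurons by -2.81 ± 0.30 (adjusted p = 0.000707), while Cntn2, a contactin, differed by 1.83 ± 0.44 (adjusted p = 0.0179), a call lost in 7 of 16 fits with a stage or value left out (up to 0.123, without E16). Pvrl3, a nectin, was higher in callosal than in corticothalamic neurons by 3.33 ± 0.32 (adjusted p = 0.000234), as was Vstm2l by 2.53 ± 0.37 (0.00166). Cadm1, a synaptic adhesion molecule, was lower in callosal neurons than in corticothalamic neurons, with -1.66 ± 0.16 (adjusted p = 0.000207), and so were Dscaml1, a relative of the Down syndrome cell adhesion molecule, with -2.56 ± 0.32 (0.00074), and Igsf21, with -2.08 ± 0.32 (0.00199). Cadm2 rose from E15 to P1 by 2.93 ± 0.22 (adjusted p = 1.7e-05), while Alcam, an adhesion molecule of growing axons, fell by 1.16 log2 units (adjusted p = 0.00885).

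For each gene, the 3 named genes with the most similar profile over the 12 groups were found among 12897 by Pearson's r of log2(FPKM + 1), a description over groups that share stages and subtypes. They were Slc7a1, Lass5 and Sh3bgrl3 for Ncam1 (r from 0.980 to 0.984) and Ppfibp1, Keap1 and Btbd10 for Ncam2 (0.964 to 0.970). For Negr1 they were Blvrb, Slc41a3 and Tceal6 (0.968 to 0.980), for Lsamp AK086355, Dbpht2 and Grid1 (0.961 to 0.991) and for Opcml C230096C10Rik, Nptxr and Npcd (0.898 to 0.917). For Mdga1 they were Tnpo1, Cep76 and Usp25 (0.946 to 0.956), and for Mdga2 Kctd12, Tmem63c and Lrrc55 (0.971 to 0.976). By Spearman's rho the first 3 held all 3 of these genes for Mdga1, 1 for Negr1 and Lsamp, and 0 for the other 4 genes. Among the 7 genes themselves, the highest r over the 12 groups were 0.78 for Ncam1 and Ncam2, 0.77 for Ncam1 and Lsamp, and 0.76 for Negr1 and Lsamp. The lowest was -0.82 for Ncam2 and Mdga1, and Mdga1 and Mdga2 had an r of -0.44.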

How the data were processed

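Poly(A)-selected RNA from sorted neurons was sequenced in 24 libraries, 2 per stage and subtype, per the labels. Per the submitters' processing notes, the authors used TopHat2, Cufflinks and the mouse build mm9; no version, annotation or way of pooling libraries is stated in them. The deposited table holds 1 value per group, read as FPKM from its values, since the header names no unit.

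The values were analysed with limma 3.58.1 and statmod 1.5.0 in R 4.3.3 (variance trend, robust moderation) with a pseudocount of 1 FPKM and a model of stage plus subtype (6 residual degrees of freedom). A gene needed 1 FPKM or more in 2 columns. The p-values had Benjamini-Hochberg adjustment over the 13946 genes tested (threshold 0.05). Slopes per subtype were added after the data were seen. The scripts were tested on simulated data.

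The 7 genes, pathway lists and markers were chosen with earlier results of these data known. Named were the 7, Ntm and Iglon5, list genes that passed and were at least 2-fold apart (otherwise the 2 most abundant of a list), and the 3 genes most like each of the 7. Of the list genes that this rule names, examples chosen with their values known are given, and the others are not reported here. Older symbols were looked up in RefSeq of GRCm38.p6, and promoters and transcripts come from that build, not from mm9.

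Alternatives were a pseudocount of 0.1, a filter at 5 FPKM, no filter, median-ratio scaling, quantile normalization, plain moderation, fits of 2 subtypes alone, and leaving out each stage, subtype or value.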

Additional observations from a re-analysis of the deposited data

Results flagged for a closer look

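The first group of results is picked out because the sign of a difference turned between stages or subtypes by at least 0.5 log2 units on each side; with 1 value per group, that turn was not tested. Mdga1 was higher at P1 than at E15 by 0.55 in callosal neurons, while the same difference was -4.83 in subcerebral and -1.98 in corticothalamic neurons. Mdga1 was also higher in subcerebral than in corticothalamic neurons at E15 (0.90) and lower at P1 (-1.94). The Opcml difference between callosal and subcerebral neurons was -1.77 at E15 and 0.74 at E18, and that between callosal and corticothalamic neurons -1.49 at E15 and 0.86 at E18. Both Opcml turns rest on the E15 callosal value of 9.71 FPKM. Negr1 differed between subcerebral and corticothalamic neurons by -1.16 at E16 and 0.68 at P1. Lsamp differed between callosal and subcerebral neurons by -0.82 at E16 and 0.61 at P1.

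Slopes over the stages differed between subtypes, by limma's test of the difference itself, for Mdga1 (callosal minus subcerebral, 1.74 per step, adjusted p = 0.0462) and Ntm (callosal minus corticothalamic, -0.88, adjusted p = 0.0493). Both lay just past the threshold. With a stage or value left out, the Mdga1 call held in 2 of 16 fits and the Ntm call in 3 of 16.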

How the results depend on the processing

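No paired analysis was possible because the table holds 1 pooled value per group and its columns carry no replicate number. Depth is unknown, so no value has a counting error, and values below 1 FPKM, such as Ncam2 in callosal and corticothalamic neurons before P1, are the least certain. Over all alternatives, the 7 genes kept direction and side of the threshold in 424 of 483 subtype results, with 31 weaker, 9 stronger and 19 reversed; in 137 of 147 results from E15 to P1 (2, 5 and 3); and in 836 of 924 slope results (57, 4 and 27). Of their subtype calls, those that no alternative ended were Ncam2 between callosal and subcerebral neurons (largest adjusted p = 0.0394) and Mdga2 between callosal and corticothalamic neurons.

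With only the 8 values of the subtypes compared, 2603 genes passed between callosal and subcerebral neurons and 2463 between subcerebral and corticothalamic neurons (4093 and 3835 with all 12), and 4 of the 7 passed between callosal and corticothalamic neurons, against 1 with no filter. Leaving out a stage or value (for E15 to P1, a subtype or value) gave 1013 to 6154 (1 to 5 of the 7), 1859 to 5277 (1 to 3) and 259 to 6244 (0 to 4) in the callosal to subcerebral, callosal to corticothalamic and subcerebral to corticothalamic comparisons, and 7566 to 9187 (5 to 6) from E15 to P1. It gave 948 to 4708 (2 to 6), 3294 to 7084 (3 to 5) and 268 to 4633 (0 to 4) for callosal, subcerebral and corticothalamic slopes, and 0 to 133 (0 to 1), 0 to 209 (0 to 1) and 0 to 131 (0 to 0) for their differences in the order above. For slope differences, quantile normalization gave 84 genes and 0 of the 7 between callosal and subcerebral neurons, where no filter also gave 0 of the 7, and 71 genes between subcerebral and corticothalamic neurons; a filter at 5 FPKM gave 80 between callosal and corticothalamic and 93 between subcerebral and corticothalamic neurons. The cause was not tested.

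The reversed values did not pass the threshold, apart from Opcml without E15 between callosal and subcerebral neurons (0.54). Quantile normalization gave 0.01 for Opcml between callosal and subcerebral neurons, and for Iglon5 -0.02 between callosal and corticothalamic neurons, -0.14 from E15 to P1, slopes of -0.02 (callosal) and -0.04 (corticothalamic) and a callosal minus corticothalamic slope of 0.02; the subcerebral minus corticothalamic slope of Opcml was -0.00. Median-ratio scaling gave 0.01 for Opcml between subcerebral and corticothalamic neurons and a callosal minus corticothalamic slope of -0.00 for Ncam1. With a pseudocount of 0.1 the callosal minus subcerebral slope of Ncam2 was 0.05. Leaving out a stage, subtype or value reversed callosal minus subcerebral Lsamp (-0.38 to 0.10), Opcml (-0.32 to 0.54) and Ntm (-0.04 to 0.50); callosal minus corticothalamic Opcml (-0.35 to 0.48) and Iglon5 (-0.01 to 0.04); subcerebral minus corticothalamic Negr1 (-0.58 to 0.04) and Opcml (-0.35 to 0.18); and from E15 to P1 Mdga2 (-0.20 to 0.36) and Iglon5 (-0.00 to 0.03). Reversed slopes were callosal Iglon5 (-0.06 to 0.09), subcerebral Opcml (-0.04 to 0.66) and Iglon5 (-0.12 to 0.05), and corticothalamic Mdga2 (-0.10 to 0.06) and Iglon5 (-0.05 to 0.10). Reversed slope differences were, for callosal minus subcerebral, Ncam2 (-1.15 to 0.40), Negr1 (-1.04 to 0.06), Opcml (-0.01 to 1.26) and Iglon5 (-0.04 to 0.14), and for callosal minus corticothalamic Ncam1 (-0.12 to 0.14), Ncam2 (-0.02 to 0.28), Negr1 (-0.12 to 0.68) and Iglon5 (-0.09 to 0.07). For subcerebral minus corticothalamic they were Ncam1 (-0.02 to 0.50), Ncam2 (-0.12 to 1.23), Lsamp (-0.65 to 0.07), Opcml (-0.31 to 0.39) and Iglon5 (-0.14 to 0.04).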
